A study of Danio rerio with 8 samples.

Results

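The T-box genes ntla, tbx16, tbx6 and eomesa encode transcription factors that share a DNA-binding T domain and act in the formation of mesoderm and endoderm. They are 4 genes among the 33843 loci of the authors' deposited table, of which 12757 had been tested. Their rows were found by symbol, but the group was chosen with the opposite changes of ntla and tbx16 known. The sizes and ranks of those changes given below are therefore descriptions. The symbols ntla, tbx16 and eomesa each had a row of their own. The symbol tbx6 occurred only in a row joined with nif3l1, so its value cannot be separated from that gene. RNA-seq compared whole zebrafish embryos at the dome stage after exposure to the FGF receptor inhibitor SU5402 at 20 µM, begun at the 2-cell stage, with control embryos kept in the same volume of the solvent DMSO. Each condition had 2 RNA-seq samples, and the labels name no strain, clutch or number of embryos. The series also has 4 ATAC-seq samples, which are not analysed here.

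In zebrafish, ntla (brachyury, now named tbxta) is needed for notochord and tail mesoderm, and tbx16 (spadetail) for the movement of trunk mesoderm cells. Maternal eomesa acts with Nodal signals in the induction of endoderm, and tbx6 (fused somites, formerly tbx24) acts later, in somite formation. FGF signalling and brachyury maintain each other in early mesoderm of Xenopus, and in zebrafish FGF signalling is known to be needed for mesodermal T-box expression around gastrulation.

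The authors gave 1 FPKM value per condition (fragments per kilobase of transcript, scaled to the library), which pools both samples. No spread between samples can be given, and calls are those of the authors' Cuffdiff comparison, made at a q-value of at most 0.05. Their table called 720 of the 12757 tested loci (5.64%), with 457 higher in SU5402 embryos (3.58%) and 263 lower (2.06%). Because the q-values were smaller than a Benjamini-Hochberg adjustment of the authors' p-values over the same loci, that stricter table-wide adjusted p is given too. It was passed by 210 loci (1.65%), of which 127 were higher (0.996%) and 83 lower (0.651%) in SU5402 embryos. A q of at most 0.01 was held by 297 loci (2.33%), 184 of them higher (1.44%) and 113 lower (0.886%). All levels, changes, p-values and q-values below come from the authors' deposited table, and the adjustment over it was computed from those p-values. The median log2 change was 0.04 over tested loci that reached 1 FPKM in each condition.

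The brachyury gene ntla was lower in SU5402 embryos. In the authors' deposited table ntla had 3.25 FPKM in SU5402 embryos, against 20.3 FPKM in control embryos. This was a fall of 6.26-fold (log2 change -2.65, q = 0.000383, table-wide adjusted p of 0.00591). Its fall ranked 6 among the 241 loci that were called lower and reached 1 FPKM in each condition. Among all tested loci, called or not and with no floor, its fall ranked 47. By level, ntla ranked 10419 among tested loci in SU5402 embryos and 4117 in control embryos. In whole embryos, fewer cells that express a gene and less RNA per cell cannot be told apart.

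The tbx16 transcript was higher in SU5402 embryos. In the authors' deposited table tbx16 had 2679.9 FPKM in SU5402 embryos, against 634 FPKM in control embryos. This was a rise of 4.23-fold (log2 change 2.08, q = 0.000383, table-wide adjusted p of 0.00591). Its rise ranked 17 among the 424 loci that were called higher and reached 1 FPKM in each condition. Among all tested loci, called or not and with no floor, its rise ranked 151. The level of tbx16 ranked 7 among all tested loci in SU5402 embryos and 49 in control embryos. Of the 6 loci above it in SU5402 embryos, 5 were mitochondrial and 1 was nuclear, the histone chaperone gene setb.

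The maternal T-box gene eomesa did not pass the test. In the authors' deposited table eomesa had 68.1 FPKM in SU5402 embryos and 59.8 FPKM in control embryos (log2 change 0.19, q = 0.512, table-wide adjusted p of 0.792). The joined row of nif3l1 and tbx6 was not called either, with 4.25 FPKM in SU5402 embryos and 3.51 FPKM in control embryos (log2 change 0.28, q = 0.652, table-wide adjusted p of 0.873). A missed threshold does not show that these levels were equal, and without values per sample no interval can be given. Both ntla and tbx16 carried p = 5e-05, the smallest in the authors' deposited table, which 108 loci held, so their p-values cannot be ranked against each other.

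**Figure D1:**
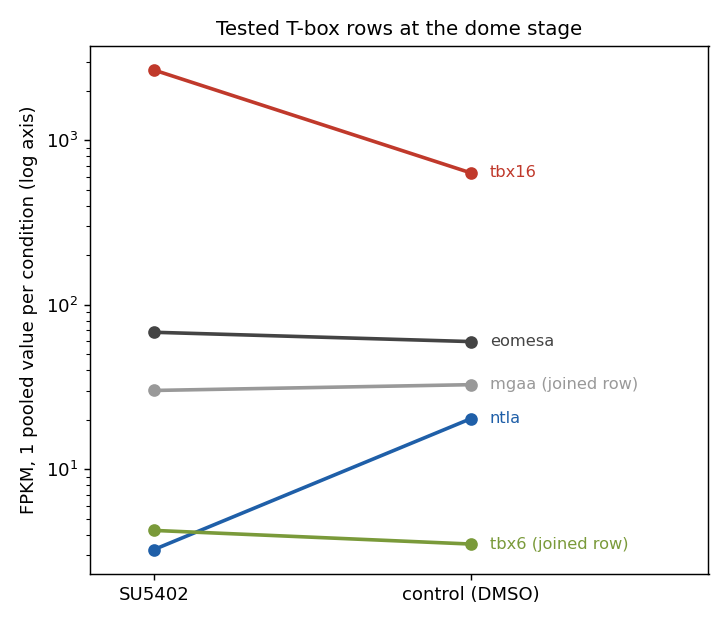
Level of each tested T-box row in FPKM (log axis, 1 pooled value per condition, no error available) in SU5402 embryos on the left and control embryos on the right; lines join the values of 1 row. The line of tbx16 is at 2679.9 FPKM in SU5402 and 634 FPKM in control embryos, that of ntla at 3.25 FPKM in SU5402 and 20.3 FPKM in control embryos, and the other 3 lines are nearly flat.

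Ratios between the members restate the opposite changes of ntla and tbx16, for which these genes were chosen, and are given as a description of levels. The FPKM of tbx16 was 826 times that of ntla in SU5402 embryos and 31.2 times in control embryos. That of eomesa was 21.0 times the level of ntla in SU5402 embryos and 2.94 times in control embryos. In SU5402 embryos the order of FPKM values was tbx16, eomesa, the mgaa row, the tbx6 row and ntla. In control embryos the order was tbx16, eomesa, the mgaa row, ntla and the tbx6 row. Whether neighbours in either order differ beyond the spread between samples cannot be told from pooled values.

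The plot of all tested loci places the members by level and change. The points of eomesa, mgaa and tbx6 lie within the band of uncalled loci. The point of ntla lies below most uncalled loci, and that of tbx16 above most of them at the high end of the level axis. Some uncalled loci fell about as far as ntla or farther, such as si:zfos-44h1.1 (log2 change -2.55, q = 0.406) and foxd3 (log2 change -7.12, q = 0.392).

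**Figure D2:**
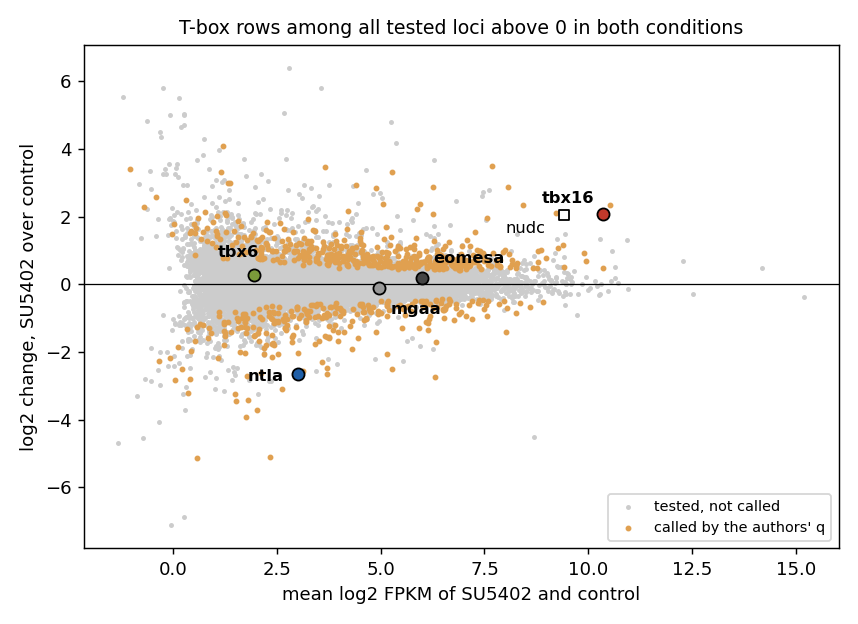
Log2 change (SU5402 over control) against the mean log2 FPKM of both conditions for tested loci above 0 in both; grey points were not called, orange points were called by the authors' q, large circles are T-box rows and the open square is nudc, the neighbour of ntla. The log2 change is 2.08 for tbx16, 2.06 for nudc and -2.65 for ntla.

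Besides the members, 19 other rows of the T-box family were listed, and nearly all were at levels too low to have been tested. A search for 31 family symbols found 23 rows, of which 5 had been tested, the 4 rows of the members and a row that joins mgaa with CR352284.1. The gene mgaa encodes a T-box protein that in mammals also pairs with Max. Its row had 30.1 FPKM in SU5402 embryos and 32.7 FPKM in control embryos in the authors' deposited table, with no call (log2 change -0.12, q = 0.831). In all, 1 tested family row was called higher (20%, against 3.58% of all tested loci) and 1 lower (20%, against 2.06%). No call was made for 3, and the median log2 change was 0.19. As the members were chosen with these changes known, the count is a description.

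Of the 18 untested family rows, 17 were under 1 FPKM in both conditions. The exception was tbx20, known for its role in the heart, with 1.20 FPKM in SU5402 embryos and 1.35 FPKM in control embryos. The others reached at most 0.371 FPKM in SU5402 and 0.359 FPKM in control embryos. Of these untested rows, 3 were listed at 0 in both conditions, 3 in SU5402 embryos only and 4 in control embryos only. The second brachyury gene ntlb was among the last, with 0.0680 FPKM in SU5402 embryos and a listing at 0 in control embryos. The tbx16 paralog tbx6l (now tbx16l) was listed at 0 in SU5402 embryos and at 0.333 FPKM in control embryos. Both relatives were far below ntla and tbx16 in each condition. Over the 5 tested rows, tbx16 made up 96.2% of the summed FPKM in SU5402 embryos and 84.5% in control embryos. Without tbx16 the sum of the tested rows was 106 FPKM in SU5402 embryos and 116 FPKM in control embryos.

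The loci themselves were looked at, since reads of neighbours can be split or merged. On Zv9, ntla lay on chromosome 19 from 30633857 to 30637924 and eomesa on the same chromosome from 839729 to 853794. The tbx16 locus was on chromosome 8 from 54012015 to 54031716, and the joined row of nif3l1 and tbx6 on chromosome 12 from 4551965 to 4603583. No row of the authors' deposited table overlapped any of the 4. In the current RefSeq annotation (assembly GRCz12tu), however, tbx16 and eomesa each overlap 1 long non-coding RNA gene, tbx6 overlaps nif3l1, and ntla overlaps no other gene. The sources do not say that the counting used strand, so reads of such overlapping genes cannot be told apart. The nearest row to ntla was nudc, which encodes a protein of nuclear migration and ended 18528 bases before it.

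Between these neighbours the changes were opposite. In the authors' deposited table nudc had 1380.9 FPKM in SU5402 embryos, against 332 FPKM in control embryos (4.16-fold higher, log2 change 2.06, q = 0.000383). The rise of nudc was thus close in size to that of tbx16, on another chromosome. The next row beyond it, nr0b2b, was untested, listed at 0 in SU5402 embryos and at 0.282 FPKM in control embryos.

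Neither row beside tbx16 was called. The gene klhl22, which ended 7417 bases before tbx16, was untested with 0.578 FPKM in SU5402 and 0.775 FPKM in control embryos. The joined row of si:ch211-53f16.1 and si:ch73-313l22.2, which began 21895 bases after it, had 10.4 FPKM in SU5402 and 9.14 FPKM in control embryos in the authors' deposited table (q = 0.634). Within 60000 bases of eomesa, the 1 tested row was C19H1orf85, with 3.87 FPKM in SU5402 and 4.49 FPKM in control embryos (q = 0.719). The tested rows near tbx6 were not called: taok2b had 7.87 FPKM in SU5402 and 7.59 FPKM in control embryos, eif3c had 65.3 FPKM in SU5402 and 54.1 FPKM in control embryos, and ppp4cb had 145 FPKM in SU5402 and 147 FPKM in control embryos. Another row of taok2b at the same coordinates was untested, with 0.889 FPKM in SU5402 and 2.51 FPKM in control embryos.

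Likeness to each member was measured as the distance between log2 FPKM values over the 2 pooled conditions, among other tested loci with a single symbol and 1 FPKM or more in each (10718 of them for ntla, tbx16 and eomesa). For ntla the nearest was amotl2a, an angiomotin-like gene, at a distance of 0.16 with 3.59 FPKM in SU5402 and 21.1 FPKM in control embryos. It was followed by zgc:173552 at 0.44 and si:zfos-44h1.1 at 0.60, the last of which had q = 0.406. For tbx16 the nearest was setb at 0.30, with 3287 FPKM in SU5402 and 648 FPKM in control embryos, and then the mitochondrial row AC024175.9 at 1.00 and setd8b at 1.05. Within a distance of 1 there were 15 such loci for ntla and 2 for tbx16, but 1440 for eomesa. The nearest to eomesa were srp72, atxn2l and zgc:86607, each at a distance that rounds to 0.01, and those nearest to the tbx6 row were si:dkey-121j17.6, tmem177 and pkmyt1. With 2 conditions, a short distance says only that level and change were alike.

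Large rises at high abundance were counted as a description. Of 791 tested loci with at least 100 FPKM in control embryos, 5 were called and at least 4-fold higher in SU5402 embryos, limits chosen after the values were seen. They were tbx16, setb, nudc, phc2b (1230.1 FPKM in SU5402 and 286 FPKM in control embryos) and TPRX1 (777 FPKM in SU5402 and 153 FPKM in control embryos). The row of TPRX1 shares its region with another row, and its table-wide adjusted p was 0.0703. By size of rise, these loci held ranks 10 (TPRX1), 11 (setb), 15 (phc2b), 17 (tbx16) and 18 (nudc). The ranks are among the 424 loci that were called higher and reached 1 FPKM in each condition. The share of such rises over all tested loci was not counted, so the count does not show that they were rarer at high abundance.

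Nodal signals at the margin induce mesoderm and endoderm, and ntla is among the genes they activate. Of 13 tested rows, the authors' deposited table called 2 higher (15.4%, against 3.58% of all tested loci) and 2 lower (15.4%, against 2.06%) in SU5402 embryos. No call was made for 9, and the median log2 change was -0.02. With the table-wide adjustment 1 was higher and 2 were lower. The co-receptor gene oep fell to 87.3 FPKM in SU5402 embryos, against 161 FPKM in control embryos. Expression of foxh1, which encodes a DNA-binding partner of Smads, fell to 36.2 FPKM in SU5402 embryos, against 60.3 FPKM in control embryos. The ligand gene dvr1 (Vg1) rose to 553 FPKM in SU5402 embryos, against 349 FPKM in control embryos. The Nodal antagonist gene lft2 had 12.5 FPKM in SU5402 and 6.93 FPKM in control embryos and was called (q = 0.0282), but its table-wide adjusted p was 0.187. The receptor genes acvr1b (80.9 FPKM in SU5402, 76.2 FPKM in control) and acvr2b (75.4 FPKM in SU5402, 74.5 FPKM in control) and the effector gene smad2 (49.6 FPKM in SU5402, 50.2 FPKM in control) were not called. The Nodal ligand genes ndr1 (squint) and ndr2, named after their values were seen, were not called and differed in direction. The level of ndr1 was 2.69 FPKM in SU5402 and 4.52 FPKM in control embryos (q = 0.147). That of ndr2 was 2.45 FPKM in SU5402 and 1.70 FPKM in control embryos (q = 0.404).

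Among 9 tested genes of endoderm and partners of eomesa, the authors' Cuffdiff comparison called 2 lower (22.2%, against 2.06% of all tested loci) and 0 higher (against 3.58%). No call was made for 7, and the median log2 change was -0.14. At an unadjusted p under 0.05, 1 was higher and 2 were lower, and after the table-wide adjustment 0 were higher and 2 lower. The chemokine receptor gene cxcr4a had 25.8 FPKM in SU5402 and 49.4 FPKM in control embryos, and the forkhead gene foxa3 had 17.9 FPKM in SU5402 and 31.8 FPKM in control embryos. The pluripotency genes nanog (1178 FPKM in SU5402, 1106 FPKM in control) and pou5f1 (405 FPKM in SU5402, 461 FPKM in control) were not called. The yolk syncytial layer gene mxtx2 (94.5 FPKM in SU5402, 104 FPKM in control) was not called either. The remaining tested rows, named after their values were seen, were not called and differed in direction. Higher in SU5402 embryos were gata5 (15.1 FPKM in SU5402, 9.98 FPKM in control, q = 0.0596) and sox32 (6.88 FPKM in SU5402, 5.01 FPKM in control). Lower was mxtx1 (21.6 FPKM in SU5402, 27.6 FPKM in control), and gata6 was nearly equal (3.58 FPKM in SU5402, 3.59 FPKM in control).

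The list of mesoderm and organizer genes linked to ntla and tbx16 had 22 tested rows, the tbx6 row among them. The authors' Cuffdiff comparison called 6 lower in SU5402 embryos (27.3%, against 2.06% of all tested loci) and 0 higher (against 3.58%). No call was made for 16. At an unadjusted p under 0.05, 6 were lower and 1 was higher, and after the table-wide adjustment 2 stayed lower and 0 higher. The 1 higher was aplnrb, named after its value was seen, with 40.4 FPKM in SU5402 and 28.9 FPKM in control embryos (q = 0.0830). The median log2 change of the list was -0.35. The forkhead gene foxd5 had 0.871 FPKM in SU5402 and 29.8 FPKM in control embryos (log2 change -5.10). The Wnt-responsive gene sp5l had 0.389 FPKM in SU5402 and 2.77 FPKM in control embryos, and osr1, a zinc finger gene, had 1.45 FPKM in SU5402 and 3.77 FPKM in control embryos. The retinoic acid degrading enzyme gene cyp26a1 had 22.7 FPKM in SU5402 and 41.3 FPKM in control embryos. The remaining calls were flh, described below, and snai1b, named after its value was seen. The level of snai1b was 6.31 FPKM in SU5402 and 10.1 FPKM in control embryos (q = 0.0265, table-wide adjusted p of 0.178). The calls that passed the table-wide adjustment were foxd5 and cyp26a1. Uncalled members at high level were snai1a (137 FPKM in SU5402, 114 FPKM in control), vox (62.4 FPKM in SU5402, 68.0 FPKM in control) and the joined row of drl (269 FPKM in SU5402, 244 FPKM in control). The forkhead gene foxd3, named after its value was seen, had 0.0820 FPKM in SU5402 and 11.4 FPKM in control embryos with no call (q = 0.392). All 6 called rows were thus lower in SU5402 embryos. This and the other lists, like the members, were chosen with earlier results of these data known, so the counts are descriptions.

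Other signals of the margin were mostly not called. Among 3 tested FGF ligand genes, 1 was called higher (33.3%, against 3.58% of all tested loci). This was fgf3 (6.15 FPKM in SU5402, 3.10 FPKM in control) in the authors' deposited table, and its table-wide adjusted p was 0.191. The ligand genes fgf17 (11.4 FPKM in SU5402, 12.1 FPKM in control) and fgf8a (5.27 FPKM in SU5402, 5.06 FPKM in control) were not called. Among 11 tested Wnt pathway genes sp5l was the 1 call, lower in SU5402 embryos (9.09%, against 2.06% of all tested loci), with table-wide adjusted p of 0.117. This call was also counted in the mesoderm and organizer list above, so it is not a separate call. The Wnt pathway genes ctnnb1 (224 FPKM in SU5402, 218 FPKM in control), fzd7b (60.2 FPKM in SU5402, 66.6 FPKM in control) and tcf7l1a (60.2 FPKM in SU5402, 49.0 FPKM in control) were not called.

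**Figure D3:**
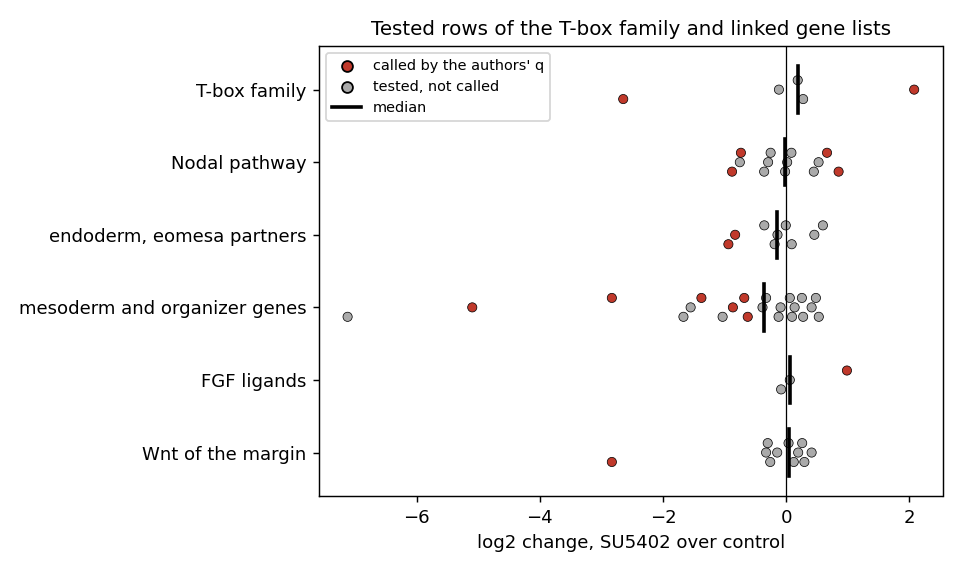
Log2 change (SU5402 over control) of each tested row in the T-box family and 5 linked gene lists; red points were called by the authors' q, grey points were not, and the bar is the list's median. The T-box family has 1 called point on each side, while the 6 called points of the mesoderm and organizer list are all below 0. The grey point farthest to the left is the uncalled foxd3.

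Markers of other cell types and of stage were set beside these changes, to be read against 3.58% of all tested loci called higher and 2.06% called lower. Organizer genes, expressed in dorsal cells next to or overlapping those with ntla, had 3 of 6 tested rows called lower (50%) and 0 called higher by the authors' Cuffdiff comparison. At an unadjusted p under 0.05 the counts were 3 lower and 0 higher, and with the table-wide adjustment 2 lower and 0 higher. The 3 called were chd (chordin), an antagonist of BMP, with 1.13 FPKM in SU5402 and 14.8 FPKM in control embryos, the homeobox gene gsc (goosecoid), with 0.866 FPKM in SU5402 and 9.50 FPKM in control embryos, and the notochord homeobox gene flh. The last had 35.9 FPKM in SU5402 and 55.2 FPKM in control embryos, and its table-wide adjusted p was 0.156. It held the largest share of the list's summed FPKM of 48.1 in SU5402 and 91.1 in control embryos. The call of flh was also counted in the mesoderm and organizer list above, so these lists are not independent. The uncalled organizer rows differed in direction, with log2 changes of 0.39 for lhx1a, -0.03 for nog1 and -0.81 for dkk1b.

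Ventral genes had 1 of 9 called higher (11.1%) and 0 lower, with sums of 279 FPKM in SU5402 and 268 FPKM in control embryos. At an unadjusted p under 0.05, 2 ventral genes were higher and 0 lower. Enveloping layer genes had 3 of 9 higher (33.3%) and 1 lower (11.1%), with sums of 544 FPKM in SU5402 and 488 FPKM in control embryos. Maternal oocyte transcripts had 4 of 9 higher (44.4%) and 2 lower (22.2%), with sums of 2573 FPKM in SU5402 and 2065 FPKM in control embryos. Most of each maternal sum was h1m, with 1549 FPKM in SU5402 and 1108 FPKM in control embryos, and the median log2 change of that list was 0.02. None of the calls in these 3 lists passed the table-wide adjustment. Yolk syncytial layer genes had 1 of 6 called higher (16.7%), the apolipoprotein gene apoeb, which passed it, and 0 lower, also 0 at an unadjusted p under 0.05. Their sums were 794 FPKM in SU5402 and 476 FPKM in control embryos. Most of each sum was apoeb, with 661 FPKM in SU5402 and 328 FPKM in control embryos. The median log2 change of the list was -0.07. The genes apoa2 and ttr were listed at 0 in both conditions and apoa1a in control embryos. Early zygotic transcripts had 1 of 15 higher (6.67%) and 2 lower (13.3%), of which 0 and 1 passed it. Their sums were 1053 FPKM in SU5402 and 1032 FPKM in control embryos, and apobec2a was listed at 0 in SU5402 embryos. The lower call of cldne was counted in both the enveloping layer and the early zygotic list. The ventral and early zygotic lists also share rows, vox among them, so these lists are not independent. The part of cell type or stage in the changes of ntla and tbx16 was not tested.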

How the data were processed

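RNA-seq of SU5402 and control embryos (2 samples each) was used as 1 table of the authors' comparison. Reads were processed on Zv9 (danRer7) with TopHat2, Picard, Cufflinks and Cuffdiff, per the submitters' processing notes, with versions not given in the sources used here. The deposited FPKM is 1 value per condition, per the file headers. The deposited log2 change is SU5402 over control, the deposited p-value and q-value are the authors', and the deposited score (test statistic) was not used. Depth per sample is unknown. Whether replicates came from separate clutches is not stated, so p-values may measure technical spread.

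Calls used a q of at most 0.05. The Benjamini-Hochberg adjustment over 12757 tested loci (Python 3.11.15, pandas 2.3.3) was tested on simulated data. Starts in the file were raised by 1 to be 1-based. No test across samples was possible, and no protein or promoter sequence was used here, so the planned sequence comparison and motif search were not run. Members and lists were chosen with earlier results of these data known. The rule for names took all members and T-box rows at 1 FPKM or more, per list up to 4 called genes per direction and 3 uncalled genes of highest level, the 3 nearest genes by likeness, and neighbouring rows. Symbols are the authors', many of them older. Some other rows named above also share their region with another row, such as nanog, mxtx2, smad2, acvr2b, vox, dkk1b and setd8b.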

Additional observations from a re-analysis of the deposited data

How the results depend on the processing

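The log2 changes of ntla, tbx16, tbx6 and eomesa kept their sign with centring on the median. They also kept it with equal sums over all loci and (added after the data were seen) over nuclear loci. Pseudocounts of 1 and 0.1 FPKM were added to both conditions alike, so they could alter the size of a change but not its sign. These runs reused the authors' q, so they could not change a call. Only the adjustment over the table and a q of at most 0.01 could change a call, and with both the calls of these genes stayed the same. With a pseudocount of 1 the log2 change of ntla was -2.33. Equal sums over all loci shifted every log2 change by -0.11, and over nuclear loci by -0.14. The T-box counts of 1 higher and 1 lower also stayed the same with the filters on level, shared regions and joined names. Those filters could not change them, because the called rows, ntla and tbx16, met each one. With the adjustment over the table and with q at most 0.01, the Nodal list had 1 called higher instead of 2, the mesoderm and organizer list 2 called lower instead of 6, and the FGF ligand list 0 higher and the Wnt list 0 lower instead of 1 each. With at least 1 FPKM in both conditions, and likewise with at least 5 FPKM in the higher one, fewer rows were counted: the mesoderm and organizer list had 4 called lower and the Wnt list 0. No paired analysis was possible because the table pools the replicates, and for the same reason no replicate could be left out.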
